A study of Mus musculus with 4 samples.

Results

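The CXC chemokine ligands were followed in bone marrow-derived macrophages of Cdk5r1 knockout and wildtype mice, with and without bacterial lipopolysaccharide (LPS). Members were all array probes whose accession belonged to 10 listed genes: the neutrophil-attracting Cxcl1, Cxcl2, Cxcl3 and Cxcl5, the interferon-induced Cxcl9, Cxcl10 and Cxcl11, and Cxcl13, Cxcl14 and Cxcl16. Probes matched 9 of the 10 genes, and 8 genes passed the filter on dim probes, out of 23571 genes or accessions kept on the arrays. Cxcl11 was not matched through the gene table used, where it is listed as a transcribed pseudogene. The single Cxcl13 probe was not well above background in either channel of any array. The 8 kept genes were read by 9 probes, of which 2 belonged to Cxcl9.

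The comparison set cells without Cdk5r1, the gene of the CDK5 activator p35, against cells that have it, both unstimulated and given LPS, the outer membrane glycolipid of Gram-negative bacteria. The groups were LPS-treated knockout (KO) cells, LPS-treated wildtype (WT) cells, basal KO cells and basal WT cells. All came from male mice 6 weeks of age, and the labels give both genotypes the strain name B6.129S4-Cdk5r1tm1Lht/J. Marrow cells were cultured in GM-CSF, a colony-stimulating factor, at 25 ng/ml over 7 days, and LPS from E. coli was given at 100 ng/ml for 6 h. GM-CSF cultures of marrow are known to hold dendritic cells and granulocytes beside macrophages, so a level here is that of a culture. Each of 4 arrays set KO RNA in the Cy5 channel against WT RNA in the Cy3 channel, with 2 LPS arrays and 2 basal arrays, which the labels describe as biological replicates. The labels do not state whether a replicate is 1 mouse or a pool. No array had the dyes the other way round, so in a KO to WT ratio the dye bias of a probe and the genotype cannot be told apart.

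CXC chemokines are small secreted proteins that guide leukocytes through receptors of the CXCR family. Members that carry the residues Glu-Leu-Arg before the CXC motif (Cxcl1, Cxcl2, Cxcl3 and Cxcl5) act on Cxcr2 and draw neutrophils, and their genes are textbook targets of NF-kappaB downstream of Toll-like receptor 4. Cxcl9, Cxcl10 and Cxcl11 act on Cxcr3 and draw activated T cells and natural killer cells, and their genes depend on interferon signalling through STAT and IRF factors. Cxcl13 draws B cells through Cxcr5, Cxcl16 is made as a membrane protein that binds Cxcr6, and Cxcl14 is a constitutive chemokine of epithelia.

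Of the 10 genes, 8 lie on mouse chromosome 5, while Cxcl14 lies on chromosome 13 and Cxcl16 on chromosome 11. In the RefSeq gene order, the protein-coding genes run Cxcl5, Ppbp, Pf4, Cxcl3, Cxcl15, Cxcl1 and Cxcl2 without another protein-coding gene between them. Cxcl9 and Cxcl10 lie on either side of Art3. The stretches below are the 250 bases before the RefSeq gene start (build GRCm38.p6), 5′ to 3′ on the strand of the gene. They are shown for the members whose LPS response or genotype ratio the results turn on, and capitals mark matches of 2 motifs searched on both strands. These were a kappaB-like motif (GGGA, any 4 bases, then CC) and an interferon response element-like motif (GAAA, any 2 bases, then GAAA).
Cxcl1 (chr5:90890995-90891244, plus strand): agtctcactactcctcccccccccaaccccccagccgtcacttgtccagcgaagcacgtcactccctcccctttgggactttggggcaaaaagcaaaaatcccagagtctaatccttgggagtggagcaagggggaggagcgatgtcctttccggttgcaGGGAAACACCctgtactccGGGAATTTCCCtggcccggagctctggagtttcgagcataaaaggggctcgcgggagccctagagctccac
Cxcl2 (chr5:90903649-90903898, plus strand): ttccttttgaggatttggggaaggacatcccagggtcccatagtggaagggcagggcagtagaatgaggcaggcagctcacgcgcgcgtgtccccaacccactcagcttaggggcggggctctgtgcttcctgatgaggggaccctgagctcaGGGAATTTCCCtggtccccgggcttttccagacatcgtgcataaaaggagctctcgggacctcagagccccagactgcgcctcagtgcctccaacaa
Cxcl3 (chr5:90785851-90786100, plus strand): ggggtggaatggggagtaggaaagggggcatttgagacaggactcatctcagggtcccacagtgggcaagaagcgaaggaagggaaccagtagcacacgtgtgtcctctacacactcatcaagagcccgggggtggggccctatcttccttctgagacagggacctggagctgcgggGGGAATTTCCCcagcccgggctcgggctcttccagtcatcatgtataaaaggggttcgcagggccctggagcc
Cxcl9 (chr5:92328080-92328329, minus strand): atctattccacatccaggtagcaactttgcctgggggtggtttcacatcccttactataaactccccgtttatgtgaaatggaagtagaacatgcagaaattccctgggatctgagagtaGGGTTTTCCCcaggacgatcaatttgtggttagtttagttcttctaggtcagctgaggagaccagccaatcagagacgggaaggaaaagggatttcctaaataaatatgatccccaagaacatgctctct
Cxcl10 (chr5:92348890-92349139, minus strand): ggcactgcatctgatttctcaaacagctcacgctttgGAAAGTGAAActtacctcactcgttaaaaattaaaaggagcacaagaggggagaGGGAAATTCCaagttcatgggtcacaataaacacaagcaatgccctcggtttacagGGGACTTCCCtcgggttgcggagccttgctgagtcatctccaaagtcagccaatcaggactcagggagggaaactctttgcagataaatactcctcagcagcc

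The 10 bases GGGAATTTCC stood before Cxcl1 at -71, before Cxcl2 at -97 and before Cxcl3 at -73 relative to the gene start. With the next base this run also matches the kappaB-like motif on the other strand, so the 2 matches overlap. Cxcl1 held a further kappaB-like match, GGGAAACACC, at -90. Cxcl10 held kappaB-like matches at -159 (GGGAAATTCC) and at -103 (GGGACTTCCC, on both strands), and the interferon response element-like run GAAAGTGAAA at -213. Cxcl9 held 1 kappaB-like match on the other strand at -130 and no match of the second motif, which says only that these letters are not in this window. Among all 32851 RefSeq promoter windows of 300 bases, 20.73% held the kappaB-like motif, 3.4428% the interferon response element-like motif and 0.5327% both. The exact run GGGAATTTCC was singled out after it had been seen in these genes, and 29 windows (0.0883%) held it. Of the other members, Cxcl13 held a kappaB-like match at -63 and Cxcl14 an interferon response element-like match at -172. RefSeq windows were used for 7 members, and Cxcl5, Cxcl11 and Cxcl16 were not in the table. A match describes the letters and is no evidence of binding.

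**Figure D1:**
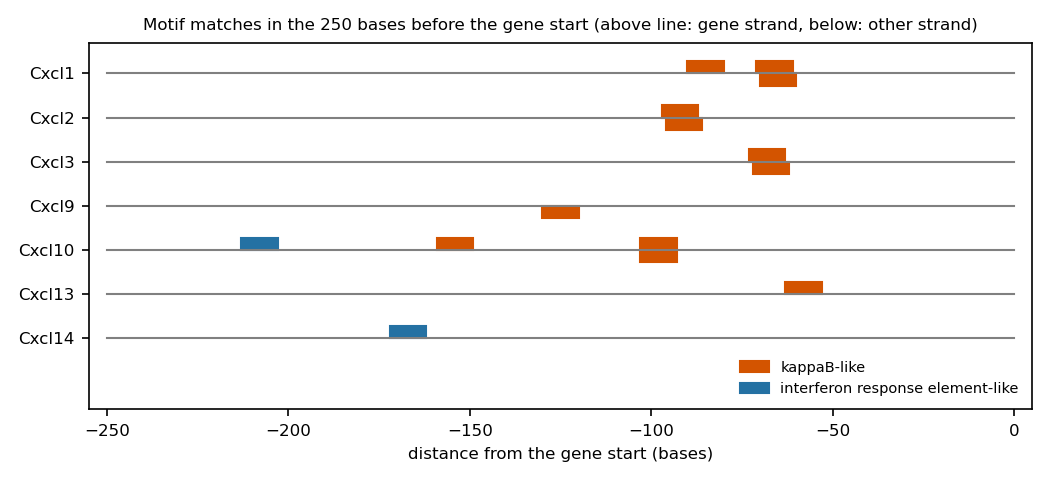
Motif matches before 7 CXC chemokine genes; the x axis is the distance from the RefSeq gene start in bases, boxes above a line are on the strand of the gene and boxes below on the other strand. The overlapping kappaB-like pair lies at -71, -97 and -73 before Cxcl1, Cxcl2 and Cxcl3, and of the genes drawn Cxcl10 carries both kinds of motif.

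Each array carried 43020 probe spots, none of them saturated. The share of spots well above background was 62.1% to 65.0% in the KO channel and 68.3% to 71.0% in the WT channel. Levels are log2 intensities after background correction, loess and between-array scaling, and a level of 1 probe is not set against that of another. The targeted gene Cdk5r1, whose probe position within the gene was not tested, had log2 KO to WT ratios of -2.55 and -2.29 on the LPS arrays and -0.37 and -0.59 on the basal arrays. Of 8 macrophage markers 7 were kept, all well above background in both channels of all 4 arrays, and Cd68 had no matched probe. Across genes, the ratios of the 2 LPS arrays correlated at r = 0.775 and those of the 2 basal arrays at r = 0.613, where genes are no independent replicates. With 2 arrays a condition, precision is limited by that number. The limma p-values rest on the spread within both conditions over the 4 arrays, moderated by the spread of all genes.

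LPS raised 7 of the 8 kept members in both genotypes, by the limma test with Benjamini-Hochberg adjusted p below 0.05. One of them, Cxcl1, was well above background on 2 LPS arrays and 0 basal arrays in both channels. It was thus kept only through the condition in which it is high, and its rise is no independent support for the count. The brighter Cxcl9 probe, well above background on 1 basal array in WT cells and 0 in KO cells, likewise needed the LPS arrays to be kept. The other Cxcl9 probe was well above background in both channels of all 4 arrays. Over all 23571 genes, 18.9% rose and 22.8% fell with LPS in KO cells (41.7% in all), and 18.1% rose and 23.6% fell in WT cells (41.7% in all). The median log2 change of the 8 members was 4.68 in KO cells and 5.50 in WT cells, against -0.02 and -0.01 for all genes. Cxcl5 and Cxcl16 changed by less than 2 log2 units. Cxcl14 was the exception.

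Cxcl10, which encodes the interferon-induced chemokine IP-10, had log2 levels of 17.73 and 17.71 in LPS KO cells, 17.40 and 17.60 in LPS WT cells, 9.01 and 8.40 in basal KO cells and 8.76 and 8.51 in basal WT cells. The LPS and basal groups were far apart in both genotypes. It rose by 9.02 ± 0.22 in KO cells and by 8.86 ± 0.14 in WT cells (log2, SE, n = 2 arrays a condition, limma adjusted p = 0.00044 and 0.00019). By size of the rise it ranked 5 of 23571 genes in KO cells and 4 in WT cells. Cxcl9, the chemokine MIG, had log2 levels of 13.44 and 13.35 in LPS KO cells, 13.02 and 13.21 in LPS WT cells, 6.29 and 6.05 in basal KO cells and 6.36 and 6.16 in basal WT cells. Its brighter probe was not well above background on either basal array in KO cells and on 1 of the 2 in WT cells. The rise was at least 149-fold in KO cells (limma adjusted p = 0.00044) and 6.85 ± 0.13 on the log2 scale in WT cells (limma adjusted p = 0.00020). A fold given as "at least" is a bound: the basal side is held at the dimmest signal still well above background on that array and channel (or at the spot itself, if brighter), and dye bias remains in it. The other Cxcl9 probe was above background throughout and rose by 5.09 and 4.85 on the log2 scale in KO and WT cells, so the 2 probes agreed on direction and not on size.

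Cxcl1, the chemokine KC, had log2 levels of 12.58 and 11.40 in LPS KO cells, 12.58 and 11.54 in LPS WT cells, 6.11 and 6.36 in basal KO cells and 6.14 and 6.21 in basal WT cells. Replicate 1 was about 1 log2 unit above replicate 2 after LPS in both genotypes, and the basal spots were not well above background. It rose at least 53.4-fold in KO cells and at least 59.1-fold in WT cells (limma adjusted p = 0.0016 and 0.00087). Cxcl2, the chemokine MIP-2, had log2 levels of 11.72 and 10.91 in LPS KO cells, 11.97 and 11.53 in LPS WT cells, 6.59 and 6.61 in basal KO cells and 6.44 and 6.64 in basal WT cells. It rose by 4.71 ± 0.29 in KO cells and by 5.21 ± 0.18 in WT cells (log2, SE, limma adjusted p = 0.0012 and 0.00038).

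Cxcl3, a further Cxcr2 ligand of the same cluster, had log2 levels of 11.55 and 11.47 in LPS KO cells, 12.69 and 12.47 in LPS WT cells, 6.95 and 6.79 in basal KO cells and 6.73 and 6.84 in basal WT cells. After LPS both KO values lay below both WT values, while the basal values of the genotypes overlapped. It rose by 4.64 ± 0.11 in KO cells and by 5.80 ± 0.12 in WT cells (log2, SE, limma adjusted p = 0.00044 and 0.00020), which ranked 104 and 35 of 23571 genes. Cxcl5, the chemokine LIX, had log2 levels of 7.53 and 7.51 in LPS KO cells, 7.89 and 7.63 in LPS WT cells, 6.40 and 6.44 in basal KO cells and 6.15 and 6.47 in basal WT cells. It rose by 1.10 ± 0.096 in KO cells and by 1.45 ± 0.16 in WT cells (log2, SE, limma adjusted p = 0.0024 and 0.0032).

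Cxcl16 was bright without LPS, with log2 levels of 14.05 and 14.14 in LPS KO cells, 14.27 and 14.00 in LPS WT cells, 12.75 and 12.19 in basal KO cells and 12.53 and 12.64 in basal WT cells. It rose by 1.62 ± 0.21 in KO cells and by 1.55 ± 0.13 in WT cells (log2, SE, limma adjusted p = 0.0062 and 0.0017). Cxcl14 had log2 levels of 6.55 and 6.52 in LPS KO cells, 6.72 and 6.55 in LPS WT cells, 6.67 and 7.19 in basal KO cells and 6.52 and 7.22 in basal WT cells. Its LPS and basal values overlapped in WT cells and not in KO cells, and its log2 changes of -0.39 in KO cells and -0.23 in WT cells did not pass the test (95% intervals -0.92 to 0.13 and -0.90 to 0.43). Cxcl13 lay between 5.95 and 6.11 in all 8 channel values, not well above background. Each genotype's rise holds its own spread only; the difference between the 2 rises is the test of the knockout effect between conditions that comes after the ratios.

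**Figure D2:**
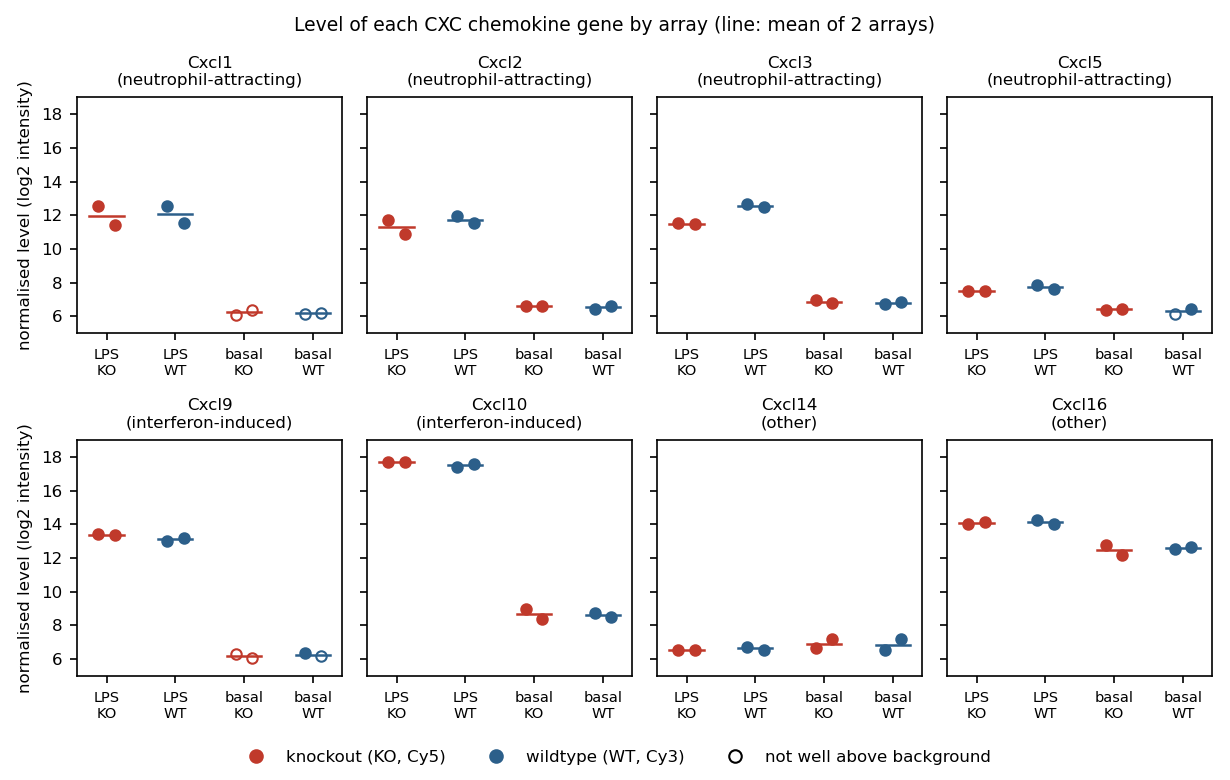
Normalised log2 level of the 8 kept CXC chemokine genes on each array (y axis), by condition and genotype (x axis); points are arrays, lines are means of 2 arrays, and open points are spots not well above background. Cxcl3 after LPS is at 11.55 and 11.47 in KO cells and 12.69 and 12.47 in WT cells, while Cxcl9 and Cxcl10 are close in both genotypes.

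**Figure D3:**
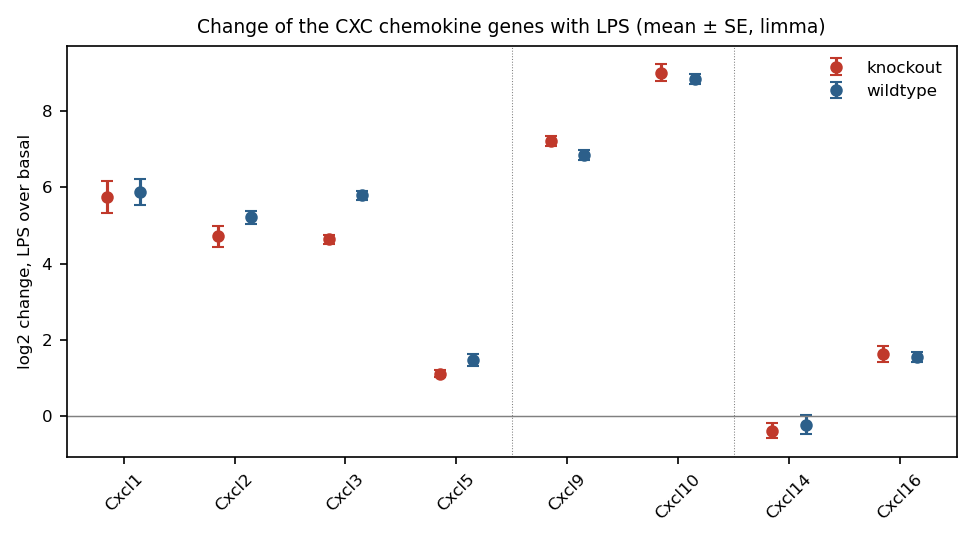
Log2 change from LPS over basal (y axis) of the 8 kept genes in KO and WT cells; points are limma estimates and bars are SE (n = 2 arrays a condition), with dotted lines between the neutrophil-attracting, the interferon-induced and the other genes. Cxcl10 stands at 9.02 in KO cells and 8.86 in WT cells, Cxcl3 at 4.64 in KO cells and 5.80 in WT cells.

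After LPS, Cxcl3 was 2.10-fold lower in KO than in WT cells and Cxcl2 was 1.36-fold lower, and no other member passed the test. These were 2 of the 8 kept members lower and 0 higher, where 5.23% of all 23571 genes were lower and 7.17% higher. At an unadjusted limma p below 0.05, 3 members were lower (Cxcl2, Cxcl3 and Cxcl5) and 1 was higher (Cxcl9). Both genes that passed are neutrophil-attracting, so 2 of 4 in that role and 0 of 2 kept interferon-induced genes passed.

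For Cxcl3, the log2 KO to WT ratios on the 2 LPS arrays were -1.14 and -0.995, and those on the basal arrays 0.23 and -0.04. The raw median signals after LPS were 3317 and 2983 in the KO channel and 4689.5 and 4280 in the WT channel, before background and dye correction. The ratio after LPS was -1.07 ± 0.089 (log2, SE, n = 2, limma adjusted p = 0.0012), with a 95% interval of -1.28 to -0.85, ranking 47 from the lowest of 23571 genes. The call held in each of 14 alternatives, among them leaving out either LPS array, with values of -1.14 to -0.87. For Cxcl2, the ratios were -0.25 and -0.63 on the LPS arrays and 0.15 and -0.03 on the basal arrays. Its value was -0.44 ± 0.10 (log2, SE, limma adjusted p = 0.043), with a 95% interval of -0.69 to -0.19. That call rested on both LPS arrays: it was -0.63 (adjusted p = 0.070) without replicate 1 and -0.25 (adjusted p = 0.28) without replicate 2. It was also lost under median centring (-0.26, adjusted p = 0.17), with the processed signals (-0.42, adjusted p = 0.13), with an offset of 16 (-0.45, adjusted p = 0.077) and in the authors' value table (-0.41, adjusted p = 0.14).

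Cxcl5 had ratios of -0.36 and -0.12 after LPS and averaged -0.24 ± 0.098 (log2, SE, limma adjusted p = 0.16; 95% interval -0.48 to -0.01). Cxcl1, the other member of the group, had ratios of 0.00 and -0.15 and averaged -0.07 ± 0.080 (limma adjusted p = 0.61), with a 95% interval of -0.26 to 0.12. Under median centring the Cxcl1 value was 0.14. The 4 neutrophil-attracting genes thus ranged from -1.07 to -0.07, around a median of -0.34 that stood beside 0.00 for all genes. Cxcl1, Cxcl2 and Cxcl3 are close paralogs, and the probe sequences were not used here, so whether a probe also reads a paralog was not tested.

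Among the interferon-induced genes, Cxcl10 had ratios of 0.34 and 0.11 on the LPS arrays, and averaged 0.22 ± 0.11 (log2, SE, limma adjusted p = 0.22; 95% interval -0.03 to 0.48). Its value moved with the normalisation, to 0.93 (adjusted p = 0.0038) under median centring and to -0.03 (adjusted p = 0.91) with the processed signals. Its raw median signals after LPS were 330020 and 300750 in the KO channel and 111878 and 149075 in the WT channel. The brighter Cxcl9 probe had ratios of 0.42 and 0.14 and averaged 0.28 ± 0.086 (limma adjusted p = 0.085; 95% interval 0.07 to 0.49). The other Cxcl9 probe had ratios of 0.65 and 0.41 after LPS and averaged 0.53 ± 0.081 (adjusted p = 0.0096 over all 28637 kept probes). That probe also read 0.30 and 0.29 on the basal arrays, so its excess in the KO channel was present on every array. With the filter that requires signal on all 4 arrays this probe stood for Cxcl9, which then passed (0.53, adjusted p = 0.011), as it did for the mean of both probes (0.41, adjusted p = 0.024) and under median centring (0.56, adjusted p = 0.011).

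The remaining kept members, Cxcl14 and Cxcl16, did not pass. Cxcl14 had ratios of -0.17 and -0.03 after LPS (mean -0.10, 95% interval -0.29 to 0.09). Cxcl16 had ratios of -0.22 and 0.14, with the arrays on opposite sides of 0, and averaged -0.04 ± 0.16 (95% interval -0.43 to 0.35).

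Set side by side within each LPS array, the KO to WT ratio of each neutrophil-attracting gene was below that of each interferon-induced gene, in 8 of 8 pairs on replicate 1 and 8 of 8 on replicate 2. The median ratio of the neutrophil-attracting genes was -0.31 and -0.39 on these arrays, that of the interferon-induced genes 0.38 and 0.12, and that of all genes 0.00 on both. On the basal arrays 3 of 8 and 0 of 8 pairs had this order, with medians of 0.19 and -0.03 for the neutrophil-attracting genes and 0.09 and -0.11 for the interferon-induced genes. With the mean of the LPS arrays, median centring, an offset of 16 and the mean over probes gave this order in every pair, as did the filter on all 4 arrays, which kept 6 pairs. The processed signals and the authors' value table gave it in 7 of 8 pairs, with Cxcl10 (-0.03 in both) then lying below Cxcl1 (-0.01 in both). With the mean of the basal arrays 2 of 8 pairs had this order, also with the processed signals and the authors' value table. It was 5 of 8 for the mean over probes, 4 of 8 under median centring and 0 of 8 with an offset of 16. The filter on all 4 arrays gave 4 of 6. The brighter Cxcl9 probe was at or near background on the basal arrays, so its basal pairs hold little signal. The order is a description of 6 genes with no test.

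**Figure D4:**
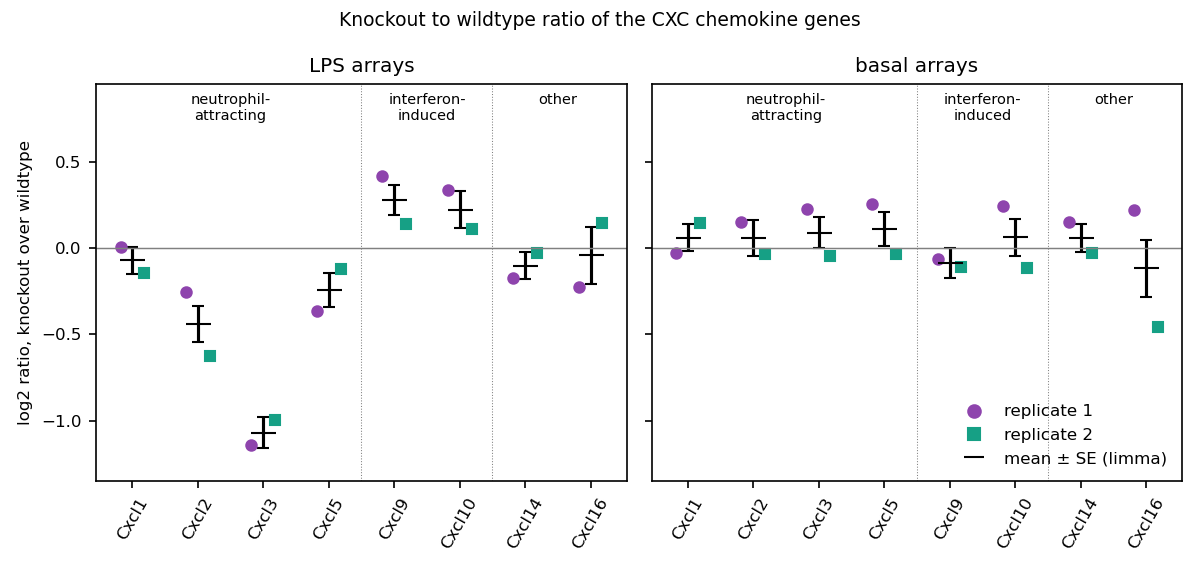
Log2 ratio of KO over WT (y axis) for the 8 kept genes on the LPS arrays (left) and basal arrays (right); points are arrays, bars are the limma mean and SE. After LPS Cxcl3 lies at -1.14 and -0.995 and Cxcl2 at -0.25 and -0.63, while Cxcl9 and Cxcl10 lie above 0 on both arrays.

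Neutrophil markers were set beside these ratios. Their median log2 KO to WT ratio was -0.56 and -0.55 on the LPS arrays and -0.55 and -0.51 on the basal arrays. Of 14 listed, 13 were kept (Ly6g had no matched probe), and 8 were lower and 0 higher in KO than in WT cells after LPS, with a median of -0.59. Their summed linear level was 153663 and 166755 in LPS KO cells and 334441 and 373604 in LPS WT cells. Without LPS 7 were lower and 0 higher, with a median of -0.54, and sums of 129480 and 150169 in basal KO cells and 185094 and 232098 in basal WT cells. Over all 23571 genes 5.23% were lower and 7.17% higher after LPS, and 1.49% lower and 3.37% higher without LPS. On all 4 arrays each of the 13 exceeded background in both channels, except Retnlg in the KO channel. With an LPS array left out 4 were lower after LPS, and under median centring 9 were lower and 2 higher. The markers of neutrophils were lower in both conditions by these counts. Their part in the Cxcl3 and Cxcl2 ratios was not tested. In bulk cultures, fewer cells of a type and less RNA per cell cannot be told apart. Of the other marker lists after LPS, 2 of 7 macrophage markers were lower, 2 of 7 dendritic cell markers were higher and 1 lower (summed levels of 219454 and 237995 in LPS KO cells and 223768 and 205176 in LPS WT cells), 1 of 7 stromal markers was higher and 2 lower, and 0 of 6 lymphocyte markers passed (1 at an unadjusted limma p below 0.05). Under median centring 3 of 7 macrophage markers and 5 of 7 dendritic cell markers were higher and none of either list lower, and with the processed signals 0 of 7 macrophage markers passed and 1 of 7 dendritic cell markers was higher and 1 lower.

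Without LPS, none of the 8 kept members passed the limma test between KO and WT cells, and none had an unadjusted p below 0.05. Over all genes, 3.37% were higher and 1.49% lower in this comparison (4.87% in all). The member values lay between -0.12 (Cxcl16) and 0.11 (Cxcl5) on the log2 scale, with a median of 0.06. The 95% interval was -0.12 to 0.30 for Cxcl3, -0.19 to 0.31 for Cxcl2 and -0.19 to 0.32 for Cxcl10. Basal Cxcl2 and Cxcl3 were well above background but dim, with raw WT signals of 55 and 67.5 and of 74 and 83. The offset shrinks ratios of dim probes, so these intervals do not show that a KO effect is absent. Over 14 alternatives the values ran from -0.03 to 0.15 for Cxcl2 and from -0.04 to 0.23 for Cxcl3. Basal Cxcl1 and Cxcl9 were at or near background, so their basal ratios hold little signal. Basal Cxcl5 was dim too, and well above background on 1 of 2 basal arrays in WT cells. Its basal value of 0.11 was 0.69 with the processed signals and in the authors' value table, and it passed in 0 of 14 alternatives. For the brighter Cxcl9 probe the basal value was -0.09, and it was -1.40 (adjusted p = 0.062) with the processed signals, which carry no offset.

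The KO effect on Cxcl3 differed between LPS and basal cells, by -1.16 ± 0.13 (log2, SE, 2 arrays a condition, limma adjusted p = 0.027; 95% interval -1.46 to -0.86). It was the only member of 8 to pass, where 0.115% of all genes were lower and 0.267% higher in this test. A dye effect that is constant cancels in this difference, but the offset shrinks ratios of dim probes and basal Cxcl3 was dim. Whether a dye bias of its probe remained in the difference was not tested. A fit that left out an LPS array called far fewer of all genes in this test. The Cxcl3 call was lost without either LPS array, at -1.09 without replicate 1 and -1.23 without replicate 2. It was also lost with the processed signals (-1.14, adjusted p = 0.28), an offset of 16 (-1.20, adjusted p = 0.076) and the authors' value table (-1.14, adjusted p = 0.28). The differences were -0.50 ± 0.15 for Cxcl2 (adjusted p = 0.30), -0.35 ± 0.14 for Cxcl5 (adjusted p = 0.45), 0.37 ± 0.12 for Cxcl9 (adjusted p = 0.36) and 0.16 ± 0.15 for Cxcl10 (adjusted p = 0.78). At an unadjusted p below 0.05, 3 members were lower (Cxcl2, Cxcl3 and Cxcl5) and 1 higher (Cxcl9). Averaged over both conditions, Cxcl3 was lower in KO cells (-0.49 ± 0.063, limma adjusted p = 0.0039) and no other member passed, where 8.2% of all genes were lower and 9.92% higher. The averaged value lost its call with the processed signals (-0.54, adjusted p = 0.057) and the authors' value table (-0.54, adjusted p = 0.058).

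Of 5 further CXC ligand genes, 4 were kept and Cxcl15 was not well above background. None of the 4 changed with LPS in either genotype by the limma test, with 0 in KO cells and 1 in WT cells (Ppbp) at an unadjusted p below 0.05. Under 75th percentile scaling, which moved the median of all genes by 0.36 in KO cells and 0.38 in WT cells, 2 passed as higher in KO cells and 4 in WT cells. None differed between KO and WT cells after LPS (0 at an unadjusted p below 0.05). Pf4, platelet factor 4, had a log2 ratio of 0.23 ± 0.18 after LPS and Cxcl12, the ligand of Cxcr4, 0.16 ± 0.10. Cxcl12 was at 0.45 ± 0.10 without LPS (limma adjusted p = 0.060) and, averaged over both conditions, at 0.31 ± 0.071 (adjusted p = 0.030). Without LPS it passed as higher with no filter on probes (0.45, adjusted p = 0.049), under median centring (0.39, adjusted p = 0.036) and without basal replicate 2 (0.63, adjusted p = 0.033). Cxcl17 passed as lower without LPS with the processed signals and in the authors' value table (-1.62 in both, adjusted p = 0.017) and under median centring (-0.33, adjusted p = 0.028), against -0.17 (adjusted p = 0.25). Pf4 and Ppbp, which lie between Cxcl5 and Cxcl3, had log2 changes with LPS of 0.22 and 0.28 in KO cells and 0.15 and 0.31 in WT cells.

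Of 8 receptor genes 7 were kept, Ackr3 not. After LPS, 1 was lower and 0 higher in KO than in WT cells, where 5.23% of all genes were lower and 7.17% higher. This was Cxcr6, the receptor of Cxcl16, at -0.39 ± 0.075 (log2, SE, limma adjusted p = 0.021). Its other probe gave -0.30 (adjusted p = 0.086 over all kept probes), the same direction and not past the threshold. The Cxcr6 call was lost without LPS replicate 1 (-0.36, adjusted p = 0.19), without LPS replicate 2 (-0.43, adjusted p = 0.13), with the processed signals (-0.55, adjusted p = 0.062) and in the authors' value table (-0.55, adjusted p = 0.064). Cxcr3, the receptor of the interferon-induced ligands, was at 0.26 ± 0.069 (adjusted p = 0.054), and it passed as higher with the processed signals (0.84, adjusted p = 0.041), in the authors' value table (0.85, adjusted p = 0.041) and with an offset of 16 (0.42, adjusted p = 0.035). Ackr1, an atypical receptor that binds inflammatory chemokines without signalling, was at 0.19 (adjusted p = 0.15) and Cxcr1 at 0.09 (adjusted p = 0.48). Cxcr2, the receptor of the neutrophil-attracting ligands, was at -0.10. With the processed signals and in the authors' value table Cxcr2 was at -1.42 (limma adjusted p = 0.051 in both). It was well above background on 2 of 4 arrays in KO cells and 4 of 4 in WT cells. Without LPS, 0 of 7 passed (1 at an unadjusted p below 0.05, Cxcr3 at -0.19).

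Of 11 interferon signalling genes, all kept, 6 rose with LPS in KO cells and 7 in WT cells. Between KO and WT cells after LPS 0 of 11 passed the limma test, where 7.17% of all genes were higher and 5.23% lower. At an unadjusted limma p below 0.05, 1 was higher and 1 lower, around a list median of -0.08. Under median centring the median was 0.18 and 3 of 11 passed as higher. The smallest adjusted p-values were those of Irf1 (0.25, adjusted p = 0.059), the receptor chain Ifnar1 (-0.21, adjusted p = 0.090), the interferon beta gene Ifnb1 (-0.18, adjusted p = 0.18) and Irf3 (-0.17, adjusted p = 0.23). The probes of Irf1 and Ifnar1 disagreed: the other Irf1 probe gave -0.0038, and the other 2 Ifnar1 probes -0.01 and 0.03. Without LPS 1 of 11 was lower, the interferon-induced factor gene Irf7 at -0.61 ± 0.066 (log2, SE, limma adjusted p = 0.0048). That value was -1.34 with the processed signals (adjusted p = 0.052) and in the authors' value table (adjusted p = 0.053), and -0.84 (adjusted p = 0.0038) with an offset of 16.

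All 12 genes of NF-kappaB control rose with LPS in both genotypes, with median log2 changes of 2.58 in KO cells and 2.57 in WT cells. After LPS 2 of 12 were higher and 0 lower in KO than in WT cells, around a median of 0.14. Of all genes, 7.17% were higher and 5.23% lower in this comparison. Nfkbiz, an inducible nuclear regulator of NF-kappaB target genes, was at 0.40 ± 0.066 (log2, SE, limma adjusted p = 0.013). Zfp36, which encodes tristetraprolin, a protein that promotes decay of cytokine and chemokine mRNAs, was at 0.42 ± 0.089 (adjusted p = 0.029). Neither passed with an LPS array left out: Nfkbiz was at 0.41 (adjusted p = 0.12) without replicate 1 and 0.39 (adjusted p = 0.12) without replicate 2, and Zfp36 at 0.31 (adjusted p = 0.26) and 0.54 (adjusted p = 0.099). Zfp36 also lost its call under a normexp offset of 16 (0.43, adjusted p = 0.051). Of the 12, 0 passed with the processed signals or in the authors' value table, and 9 of 12 were higher under median centring. Rel was at 0.27 (adjusted p = 0.058) and Rela at -0.18 (adjusted p = 0.15). Without LPS 0 of 12 passed (4 higher under median centring), and 4 were higher and 1 lower at an unadjusted limma p below 0.05.

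**Figure D5:**
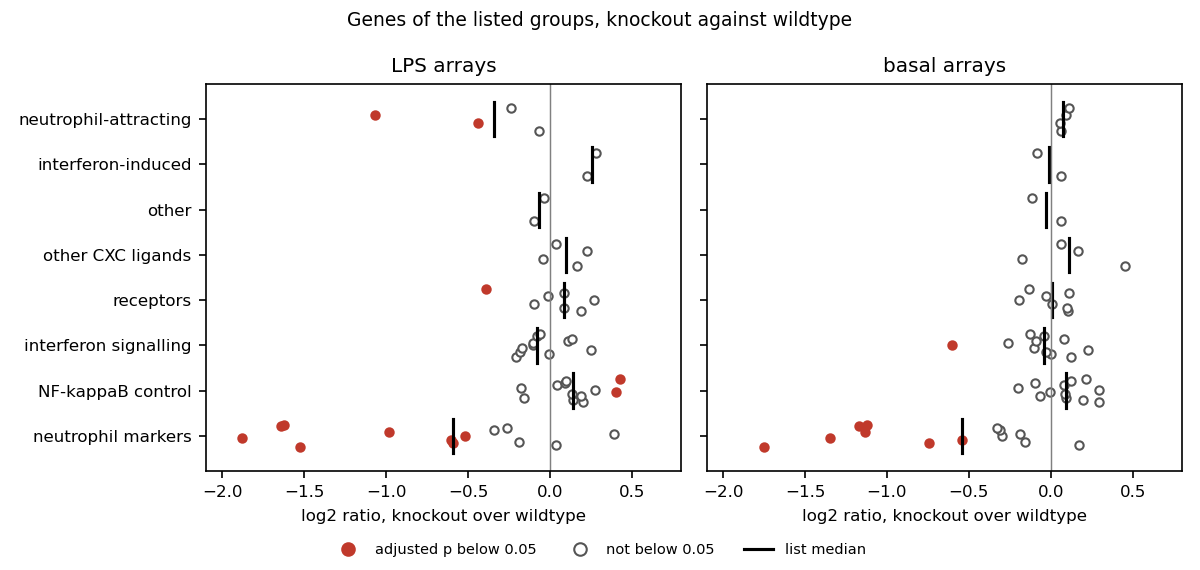
Log2 ratio of KO over WT (x axis) for every kept gene of the chemokine roles, the further CXC ligands, the receptors, interferon signalling, NF-kappaB control and neutrophil markers (rows), on the LPS arrays (left) and basal arrays (right); filled points have a limma adjusted p below 0.05 and bars are list medians. The neutrophil-attracting median is -0.34 after LPS, the interferon-induced median 0.25 and the neutrophil marker median -0.59.

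Likeness of pattern was measured as the root mean square difference of centred log2 level over 8 channel values (4 arrays by 2 channels), where both channels of an array share its hybridisation. The genes most like Cxcl3 were Ifi214 (0.30), Cxcl2 (0.32) and Mab21l3 (0.36). Ifi214 had a log2 KO to WT ratio of -0.39 after LPS and Mab21l3 of -0.17. The genes most like Cxcl10 were Oasl1 (0.33), Rsad2 (0.44) and Ifit1 (0.47), all known as interferon-stimulated genes. Their ratios after LPS were 0.34, -0.41 and -0.22, so genes of a like LPS response lay on both sides of 0 between the genotypes.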

How the data were processed

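Total RNA of the 4 pairs of cultures was labelled (10 µg each) and read on 2-colour Agilent arrays. The deposited scanner files hold, per the file headers, the intensity of each spot (median foreground and background) and log10 ratios, which were not used. They were made with Agilent's Feature Extraction. Its version is 11.5.1.1 in the file headers, while the submitters' processing notes name 9.3.2.1. The authors' deposited value table holds log2 ratios of KO over WT: its columns equal the log2 ratio of the processed signals plus a constant (-0.0020 to 0.0051; within 0.001 for 100% of 39030 probes), with medians of 0.016, 0.034, 0.029 and 0.031, and the origin of the constant is unknown.

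The normexp method (offset 50) removed background, then ratios were normalised by loess (weight 0 for control spots and outlier flags) and levels by Aquantile across arrays, in limma 3.58.1 under R 4.3.3. An offset shrinks ratios of dim probes. A probe was kept (28637 of 39429) if at least 2 of the 4 arrays showed it well above background in at least 1 channel. Accessions were matched without version to RefSeq (GRCm38.p6), which named 27508 probes; all printed coordinates are RefSeq's. The brightest kept probe stood for a gene. The 6 comparisons were fitted with lmFit and eBayes over all 23571 genes and adjusted by Benjamini-Hochberg, threshold 0.05, two-sided; KO against WT on ratios of all 4 arrays, LPS against basal within a channel. With 1 slide and 1 scan for all arrays there was no batch to fit. The fits were tested on simulated data.

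The members and lists were chosen with earlier results of these data known. Named were all members, up to 4 genes of each further list by the smallest adjusted p in the comparison, Cdk5r1, and the 3 genes most like Cxcl3 and Cxcl10. The ratio of Cxcr2 after LPS was added with its values seen. Marker lists covered macrophages, neutrophils, dendritic cells, stromal cells and lymphocytes. Protein sequences were not used here.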

Additional observations from a re-analysis of the deposited data

Results flagged for a closer look

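The KO effect on Cxcl3 differed between LPS and basal cells, by -1.16 on the log2 scale (limma adjusted p = 0.027). It is listed because the difference itself passed its test. The LPS arrays read -1.14 and -0.995 and the basal arrays 0.23 and -0.04. The call was lost without either LPS array and with the processed signals, offset 16 and the authors' value table, among others, while the value stayed between -1.30 and -0.94 over 13 alternatives.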

How the results depend on the processing

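Of the 8 kept members, the count past the threshold between KO and WT cells after LPS was 2, and it was 1 with the processed signals, with a normexp offset of 16 and with the authors' value table, and 1 to 2 with an array left out. It was 3 under median centring, where Cxcl9 and Cxcl10 were higher, Cxcl3 was lower and Cxcl2 lost its call, and 3 with the filter on all 4 arrays and with the mean over probes, where Cxcl9 joined as higher. Averaged over both conditions it was 1, against 0 with the processed signals and the authors' value table, and 2 under median centring, with the filter on all 4 arrays and with the mean over probes. The difference between conditions called 1, and 0 with the processed signals, offset 16, the replicate block and the authors' value table, and 0 to 1 with an array left out. The cause of these changes was not tested, except that a fit without an array has fewer samples, where the lone array is assumed to vary like the others. With an LPS array left out, far fewer of all genes were called in the LPS ratio and in the difference. A call lost in such a fit is therefore not particular to the gene named. The basal count of 0 held in all alternatives run. The LPS rise of 7 members became 6 under the filter on all 4 arrays, where Cxcl1 was not tested.

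No sign change passed the threshold. After LPS, Cxcl1 was 0.14 under median centring and -0.15 to 0.0047 with an array left out, Cxcl10 was -0.032 with the processed signals and -0.0285 in the value table, and Cxcl16 was 0.33 under median centring, 0.0054 with the processed signals, 0.0085 in the value table and -0.22 to 0.14 with an array left out. Without LPS, Cxcl1 was -0.30 with the processed signals and the value table and -0.080 under median centring, Cxcl2 was -0.0069 and Cxcl16 0.12 under median centring, and Cxcl9 was 0.29 with the filter on all 4 arrays and 0.10 for the mean over probes. With an array left out, the basal values ranged from -0.025 to 0.15 for Cxcl1, -0.033 to 0.15 for Cxcl2, -0.029 to 0.15 for Cxcl14, -0.045 to 0.23 for Cxcl3, -0.031 to 0.25 for Cxcl5, -0.12 to 0.24 for Cxcl10 and -0.45 to 0.22 for Cxcl16. The difference for Cxcl1 was 0.29 with the processed signals and the value table and 0.22 under median centring. That for Cxcl10 was -0.10 with the processed signals and the value table and -0.019 to 0.34 with an array left out, and that for Cxcl16 was -0.26 to 0.41. Cxcl14 with LPS in WT cells was 0.16 under 75th percentile scaling and -0.58 to 0.12 with an array left out.

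Median centring moved the median of all genes by 0.07 after LPS and 0.09 without, and split the calls after LPS into 4633 higher and 859 lower, against 1689 and 1232; it gave 3812 and 647 without LPS, against 795 and 352, and 7262 and 1677 averaged, against 2339 and 1934. Scaling to the 75th percentile moved the median by 0.36 in KO cells and 0.38 in WT cells, with 10828 rising and 4165 falling in KO cells, against 4456 and 5383, and 11488 and 4215 in WT cells, against 4265 and 5557. The difference between conditions called 63 genes higher and 27 lower, and 5 and 1 with the processed signals. Replicate numbers are shared by the LPS and basal arrays, but the labels tie them to nothing: deviations correlated at -0.161 for ratios, -0.190 for WT levels and -0.0831 for KO levels over 2 pairs. With the replicate block the members called were 2 after LPS, 0 without, 1 averaged and 0 for the difference, where Cxcl3 had -1.16 (limma adjusted p = 0.053). Zfp36 after LPS also lost its call with the block (0.42, adjusted p = 0.055), and Cxcl12 without LPS gained one (0.45, adjusted p = 0.045). Dim basal spots of Cxcl1, Cxcl5 and Cxcl9, and the low basal signals of Cxcl2 and Cxcl3, limit every value that uses them.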

Other observations

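The receptor genes moved with LPS in ways not described above, and the genes named here were chosen after their values were seen. Cxcr4, the receptor of Cxcl12, fell by 2.23 ± 0.21 in KO cells and by 2.25 ± 0.24 in WT cells (log2, SE, n = 2 arrays a condition, limma adjusted p = 0.0029 and 0.0028). Cxcr5, the receptor of Cxcl13, rose by 1.28 ± 0.13 in KO cells and by 1.31 ± 0.11 in WT cells (limma adjusted p = 0.0035 and 0.0017). Cxcr6 rose by 0.76 ± 0.12 in KO cells and by 1.02 ± 0.091 in WT cells (limma adjusted p = 0.011 and 0.0019). Cxcr2, the receptor of the neutrophil-attracting ligands, which was well above background on 2 of 4 arrays in KO cells, changed by -1.04 ± 0.39 in KO cells (limma adjusted p = 0.093) and fell by 0.94 ± 0.25 in WT cells (limma adjusted p = 0.039).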
